A study of Tupaia belangeri chinensis with 12 samples.

Results

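The 10 glycolytic enzyme genes HK1, HK2, ALDOA, ALDOC, PGK1, ENO1, ENO2, PKM, LDHA and LDHB were followed across 4 layers of developing cortex in the Chinese tree shrew (Tupaia belangeri chinensis), a small mammal that is a near relative of the primates. They were chosen by their gene symbols, out of 81414 gene IDs in the deposited tables, of which 14101 were tested. The layers, captured by laser from Nissl-stained sections of fetal brain for which the labels name no treatment or genotype, were the ventricular zone (VZ), the inner and outer subventricular zones (ISVZ and OSVZ) and the cortical plate (CP), with 3 libraries each. The labels give embryonic day 37 for all 12 libraries, whereas the table names carry day 35. The labels do not tie the libraries to animals, so p-values here reflect variation among samples that may be technical replicates.

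Glycolysis turns glucose into pyruvate in the cytosol and yields ATP without oxygen, and lactate dehydrogenase then interconverts pyruvate and lactate. Several steps are carried out by isoenzymes from different genes. HK1, ALDOA and ENO1 are widely expressed forms, HK2 is a hexokinase typical of proliferating and insulin-responsive cells, ALDOC is a brain aldolase found in radial glia and astrocytes, and ENO2 is the neuron-specific enolase. In the developing cortex, progenitors in the VZ are regarded as relying on glycolysis more than the neurons that settle in the CP.

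The symbols alone did not reach all 10 genes. The entries that carry the plain names ENO1 and LDHB were listed at 0 in all 12 libraries, and the PKM entry did not exceed 2.26e-06. The tables hold further entries named as copies of a symbol, and for each of these 3 genes a copy entry lay among the genes that flank that symbol in the RefSeq annotation of the tree shrew (assembly TupChi_1.0, used for gene order only). The entry ENO1li3 shared 4 of the 5 named RefSeq neighbours of ENO1, among them CA6 and RERE. LDHBli12 shared 10 of the 10 neighbours of LDHB, among them KCNJ8 and GYS2. PKMli1 shared 12 of the 13 neighbours of PKM, and the plain PKM entry, a stretch of 634 bases, lay inside it. These 3 entries were chosen by their neighbours after the zeros had been seen, and they are used below for ENO1, LDHB and PKM beside the 7 members that passed the expression filter under their own symbol. The entries ENO1li3 and LDHBli12 held at least 98.05% and 96.6% of the signal summed over all entries of their symbols in each library. LDHA was not found in the RefSeq table, and its own symbol entry was used. The gene-level values cannot separate the M1 and M2 splice forms of PKM.

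Levels are FPKM, fragments normalised to transcript length and to the fragments mapped in the library, scaled by a single factor per library between 0.947 and 1.06, and are given with the SD over 3 libraries. Read counts were not used here, so depth is unknown from these values. The half-width of the deposited bounds was taken only in libraries above 1 FPKM, which left out HK2 in CP 1 and CP 2 and ENO2 in VZ. In the libraries kept it was 13.2% to 25.0% of the value for HK1, up to 31.8% for ENO2 and up to 19.4% for HK2. For the other 7 enzymes it was 2.13% to 7.80%. Differences are on the log2(FPKM + 1) scale, which understates changes of low genes, with adjusted p from limma at a threshold of 0.05. Marker genes set CP apart from the 3 germinal layers. PAX6, a radial glial factor, ranged from 12.7 to 36.0 in the germinal layers and was at most 0.76 in CP, whereas the neuronal gene STMN2 ranged from 294 to 925 and from 1624 to 1939. FABP7 (radial glia) and NEFL (neurons) were under 1 in all libraries, and the other 7 of 8 radial glial and 8 of 9 neuronal markers were detected. The radial glial markers summed to 738 to 864 in VZ, 304 to 401 in ISVZ and 207 to 217 in OSVZ, whereas those of intermediate progenitors overlapped among VZ (201 to 323), ISVZ (176 to 366) and OSVZ (184 to 296) and did not tell these layers apart. The choroid plexus transcript TTR stood at 529 in VZ 1 and 2514 in VZ 2, against 33.8 in VZ 3. In bulk tissue, fewer cells of a type and less RNA per cell cannot be told apart.

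Of the 10 enzymes, 8 differed among the 4 layers, all but ALDOA and PKM, against a background of 51.8% of all genes tested. By symbol alone, 6 of 7 did, and with a block for same-numbered libraries ALDOA differed too (adjusted p = 0.0114, limma). ENO1 was the most abundant of the 10 per transcript length in every layer. In VZ its mean was 608, followed by LDHB at 228, ALDOA at 182, LDHA at 174, PKM at 98.0, ALDOC at 49.2, PGK1 at 46.8, HK1 at 29.2 and HK2 at 4.24, with ENO2 close to 0. In CP the order was ENO1 at 370, LDHA at 135, LDHB at 121, ALDOA at 117, PKM at 94.7, HK1 at 54.7, PGK1 at 47.7, ENO2 at 30.5, ALDOC at 14.7 and HK2 at 0.52. HK1 and ENO2 stood higher in this order in CP than in VZ, and LDHA stood above LDHB.

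**Figure D1:**
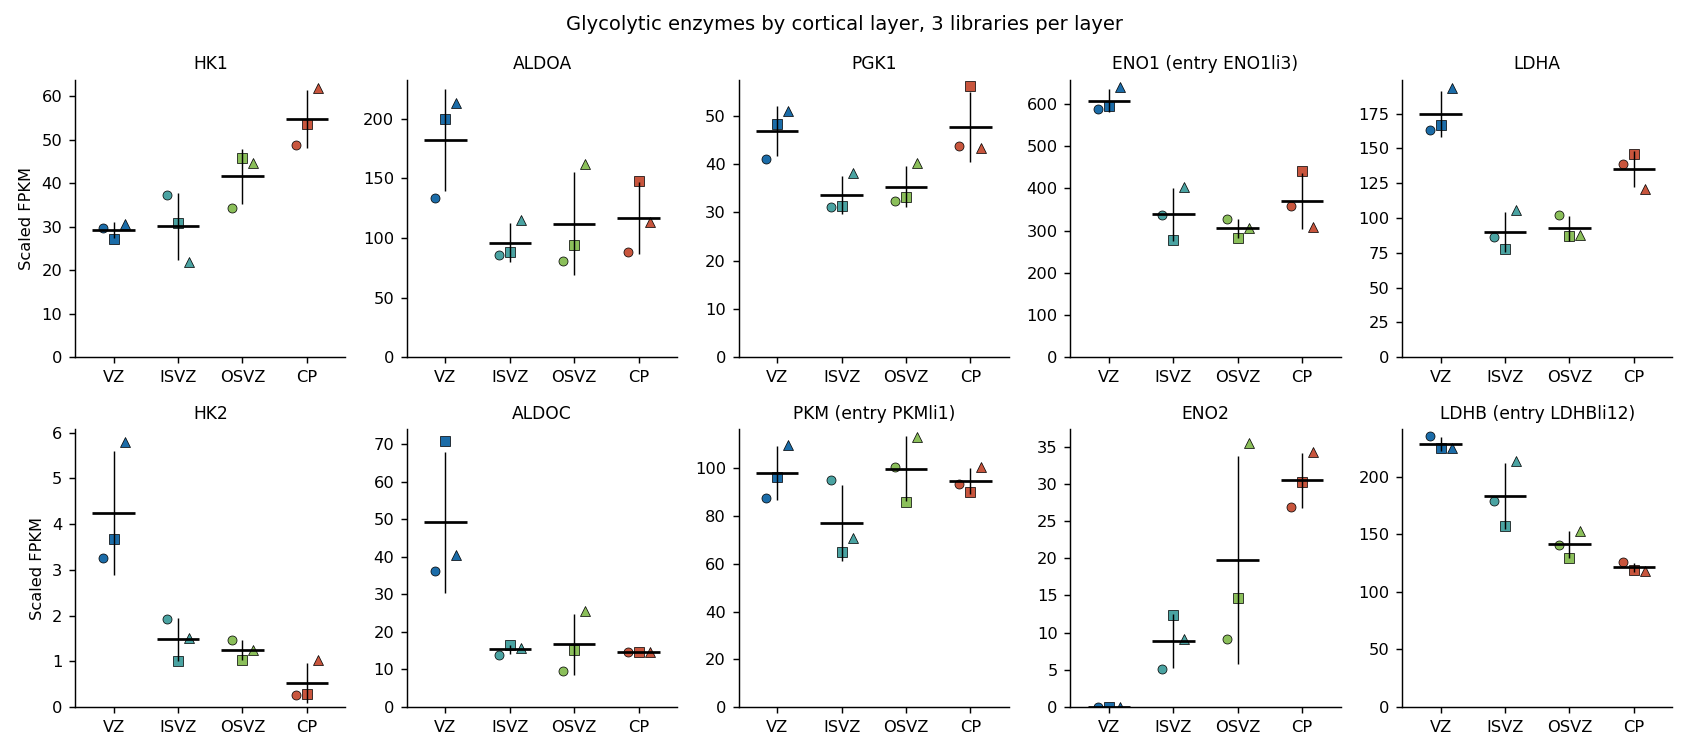
Scaled FPKM (vertical axes, linear, from 0) of the 10 enzymes in the 3 libraries of each layer; circles, squares and triangles are libraries 1, 2 and 3, horizontal lines the layer means and vertical lines the SD. HK1 and ENO2 were highest in CP (means 54.7 and 30.5), HK2, ALDOC and ENO1 were highest in VZ (4.24, 49.2 and 608), and LDHB stepped down from 228 in VZ to 121 in CP.

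The first step, phosphorylation of glucose by hexokinase, showed opposite patterns for its pair of genes. HK1 (chr15:56927339-57129821 in the deposited tables), the hexokinase that predominates in brain, measured 29.8, 27.1 and 30.7 in VZ 1 to 3 and 37.3, 30.9 and 22.0 in ISVZ. It measured 34.4, 45.9 and 44.6 in OSVZ and 48.7, 53.6 and 61.9 in CP. All CP libraries lay above all 9 germinal ones, while VZ and ISVZ overlapped. HK1 was 1.63-fold higher in CP than in the germinal mean (log2 difference 0.71 ± 0.15 SE, adjusted p = 0.00169, limma) and 1.87-fold higher than in VZ (adjusted p = 0.00153). OSVZ was not called against VZ (0.49 ± 0.18, adjusted p = 0.0634) nor CP against OSVZ (0.39 ± 0.18, adjusted p = 0.120). OSVZ against VZ did pass with quantile normalisation (adjusted p = 0.0439) and without ISVZ 1 (0.0386), ISVZ 3 (0.0250) or OSVZ 1 (0.0411). In RefSeq, HKDC1, another hexokinase gene, lies next to HK1. No HKDC1 entry was found in the deposited tables, and a locus named as antisense to HKDC1 lies within the HK1 entry. Whether HKDC1 reads were counted under HK1 was not tested. The HK1/HK2 ratio given below rests on this entry too.

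HK2 (chromosome 12), the other hexokinase of the pair, measured 3.27, 3.68 and 5.79 in VZ and between 0.995 and 1.92 in the 6 subventricular libraries. In CP it measured 0.251, 0.278 and 1.03, so that 1 CP library overlapped the lowest subventricular values. No VZ library overlapped any other layer. HK2 fell by 1.04 ± 0.19 on the log2 scale in CP relative to the germinal mean (adjusted p = 8.82e-04, limma). Against VZ it was lower by 8.15-fold in CP (log2 difference -1.79 ± 0.24, adjusted p = 6.83e-05), by 3.40-fold in OSVZ (adjusted p = 0.00351) and by 2.88-fold in ISVZ (adjusted p = 0.0177). The ISVZ call was lost with a pseudocount of 0.1 (adjusted p = 0.0656) and without ISVZ 2 (adjusted p = 0.0822), VZ 2 (0.0569) or VZ 3 (0.0755).

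The cleavage of fructose bisphosphate by aldolase was represented by ALDOA and ALDOC. ALDOA, the general aldolase, measured 133, 199 and 213 in VZ, 85.4, 87.8 and 115 in ISVZ, 81.0, 93.7 and 162 in OSVZ and 88.3, 148 and 113 in CP. OSVZ 3 and CP 2 reached above VZ 1, so these layers overlapped. ALDOA passed in no contrast of the layer model as fitted. Its largest difference was ISVZ minus VZ (-0.90 ± 0.28, adjusted p = 0.0707, limma), and without OSVZ 3 that comparison passed (adjusted p = 0.0315), as did OSVZ minus VZ (-1.02, adjusted p = 0.0146). Without VZ 1 both also passed (-1.11 with adjusted p = 0.0408 and -0.94 with adjusted p = 0.0377), and CP minus VZ passed without VZ 1 (adjusted p = 0.0321), OSVZ 3 (0.0320) or CP 2 (0.0416). With all 12 libraries it passed under quantile normalisation (-0.75, adjusted p = 0.0443). A block for same-numbered libraries, not used in the fit reported, called CP, ISVZ and OSVZ minus VZ (adjusted p = 0.0163, 0.0172 and 0.0164, limma).

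ALDOC, the brain aldolase, measured 36.3, 70.8 and 40.4 in VZ, 13.9, 16.4 and 15.6 in ISVZ, 9.46, 15.0 and 25.5 in OSVZ and 14.6, 14.7 and 14.7 in CP. All 3 VZ libraries lay above the 9 others, which overlapped one another. ALDOC was lower than in VZ by 3.21-fold in ISVZ (log2 difference -1.56 ± 0.30, adjusted p = 0.00959, limma), by 2.95-fold in OSVZ (-1.55 ± 0.30, adjusted p = 0.00331) and by 3.35-fold in CP (-1.62 ± 0.30, adjusted p = 8.45e-04). Of the 6 astrocyte markers, 4 were lower than in VZ in ISVZ (7.18% of all genes were), 5 in OSVZ (16.2%) and 6 in CP (28.7%). Their summed level was 292 to 452 in VZ, 73.3 to 127 in ISVZ, 75.5 to 97.0 in OSVZ and 24.1 to 96.3 in CP, where SPARCL1 alone made up 91.6 of the 96.3 in CP 1. VZ 2, the library with the highest ALDOC, also had the highest TTR. Without VZ 1 and VZ 2 together, which leaves VZ 3 alone and assumes that it varies like the other layers, ALDOC remained lower by 1.35 in ISVZ but lost its call (adjusted p = 0.140), as it did in OSVZ (-1.33, adjusted p = 0.0623). Of the 7 tested radial glial markers, 5 were lower than in VZ in ISVZ, 7 in OSVZ and 7 in CP, beside the same background shares. The part of radial glial, astrocytic or choroid plexus RNA in the difference was not tested.

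PGK1, which makes the first ATP of the pathway, measured 41.1, 48.4 and 51.0 in VZ, 31.1, 31.4 and 38.2 in ISVZ, 32.4, 33.2 and 40.2 in OSVZ and 43.7, 56.1 and 43.3 in CP. VZ and CP overlapped in part, and every library of these 2 layers lay above every subventricular one. CP exceeded OSVZ by 0.42 ± 0.14 (adjusted p = 0.0405, limma) and the germinal mean by 0.31 ± 0.11 (adjusted p = 0.0383). Both calls were narrow. Without CP 2, the highest library, the adjusted p was 0.148 and 0.221, and with FPKM as deposited it was 0.0997 and 0.127. The call against OSVZ was also lost without CP 1, ISVZ 2, OSVZ 1, OSVZ 2 or VZ 2 (adjusted p = 0.0509 to 0.131), and that against the germinal mean without ISVZ 1, ISVZ 2, OSVZ 1, OSVZ 2 or VZ 1 (0.0570 to 0.0631). The differences from VZ were not called (-0.47 ± 0.14 in ISVZ, adjusted p = 0.0637, and -0.40 ± 0.14 in OSVZ, adjusted p = 0.0539). Both passed without VZ 1 (0.0467 and 0.0385) or CP 2 (0.0476 and 0.0383), as did ISVZ without ISVZ 3 (0.0487) and OSVZ without OSVZ 3 (0.0363). With the block for same-numbered libraries both passed as well (0.0396 and 0.0341).

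Enolase, which makes phosphoenolpyruvate, was represented by ENO1 and ENO2. ENO1, read from ENO1li3 on chromosome 13, measured 588, 596 and 639 in VZ, 336, 278 and 403 in ISVZ, 328, 283 and 305 in OSVZ and 359, 442 and 309 in CP. All VZ libraries lay above the others, and the other 3 layers overlapped. ENO1 fell by 0.86 ± 0.16 in ISVZ (adjusted p = 0.00835, limma), by 0.99 ± 0.16 in OSVZ (adjusted p = 0.00124) and by 0.73 ± 0.16 in CP (adjusted p = 0.0026), each against VZ. The layer means came to 55.8%, 50.3% and 60.9% of that of VZ. CP did not pass against OSVZ (adjusted p = 0.242) or the germinal mean (adjusted p = 0.495).

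ENO2, the neuronal enolase on chromosome 7, was listed at 8.5e-06, 5.2e-05 and 0.0255 in VZ. It measured 5.10, 12.3 and 9.10 in ISVZ, 9.15, 14.6 and 35.5 in OSVZ and 26.9, 30.3 and 34.2 in CP. ISVZ and OSVZ overlapped, and OSVZ 3 lay above all CP libraries. ENO2 rose against VZ in ISVZ (adjusted p = 0.00165, limma), OSVZ (adjusted p = 1.77e-04) and CP (adjusted p = 1.58e-06). No fold is given for these, because VZ was listed at or close to 0, where a failed estimate cannot be told apart from absence. CP against OSVZ was not called (0.80 ± 0.39, adjusted p = 0.143), but without OSVZ 3 it was (1.31, adjusted p = 0.00625). That library also stood apart in the 9 neuronal markers, whose summed level was 2394 in OSVZ 3 against 1755 and 1844 in the other 2 OSVZ libraries, and 4126 to 5024 in CP. GAP43, a growth cone protein of neurons, measured 223 in OSVZ 3 against 80.5 and 80.0. The part of neuronal RNA in OSVZ 3 was not tested. The ENO2 entry overlaps ATN1, listed at a mean of 24.5 in VZ and 27.1 in CP, and reads of the shared stretch could have been divided between them.

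PKM, which makes pyruvate and the second ATP, measured 87.6, 96.6 and 110 in VZ, 95.2, 65.0 and 71.0 in ISVZ, 101, 85.7 and 113 in OSVZ and 93.3, 90.1 and 101 in CP, read from PKMli1 at chr23:30826562-30857956. Every layer overlapped every other. PKM passed in none of the contrasts, and its F test over the layers gave an adjusted p of 0.150 (limma). CP minus VZ was -0.04 ± 0.15 and OSVZ minus VZ was 0.02 ± 0.15, with unadjusted p-values of 0.777 and 0.878. Without ISVZ 1 the layers differed (adjusted p = 0.0265), with ISVZ then lowest.

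Lactate dehydrogenase is a tetramer of subunits from LDHA and LDHB, in which LDHA-rich forms favour lactate and LDHB-rich forms favour pyruvate. LDHA measured 163, 166 and 193 in VZ, 86.5, 77.9 and 105 in ISVZ, 102, 86.9 and 88.0 in OSVZ and 139, 146 and 120 in CP. VZ was highest, CP intermediate and the 2 subventricular layers lowest, and only the last 2 overlapped. LDHA fell against VZ by 0.95 ± 0.13 in ISVZ (adjusted p = 0.00282, limma) and by 0.91 ± 0.13 in OSVZ (adjusted p = 7.43e-04). CP lay above OSVZ by 0.54 ± 0.13 (1.46-fold, adjusted p = 0.0105) and below VZ by 0.37 on that scale (log2 difference -0.37 ± 0.13, adjusted p = 0.0364). The call against VZ was lost without VZ 2, VZ 3, CP 1 or CP 3 (adjusted p = 0.0581, 0.132, 0.0611 and 0.123).

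LDHB, read from LDHBli12, measured 235, 225 and 225 in VZ, 179, 157 and 214 in ISVZ, 141, 130 and 153 in OSVZ and 126, 119 and 118 in CP. No library of any layer overlapped those of another. LDHB was 1.89-fold lower in CP than in VZ (log2 difference -0.91 ± 0.12, adjusted p = 6.18e-05, limma), 1.62-fold lower in OSVZ than in VZ (-0.69 ± 0.12, adjusted p = 0.00164) and 1.52-fold lower in CP than in the germinal mean (-0.57 ± 0.10, adjusted p = 4.62e-04). The steps between neighbouring layers did not pass, with an adjusted p of 0.120 for ISVZ minus VZ, 0.120 for OSVZ minus ISVZ and 0.186 for CP minus OSVZ. The first passed without ISVZ 3 (0.0405) and the last with quantile normalisation (0.0437). Without VZ 1 and VZ 2 together, which leaves VZ 3 alone, the OSVZ minus VZ call was lost, at a difference of -0.67.

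In counts, 5 of the 10 enzymes passed in CP against the germinal mean, with HK1, PGK1 and ENO2 higher and HK2 and LDHB lower. The background was 52.7% of all genes called, 24.0% higher and 28.7% lower, so the share of enzymes was near the background. By symbol alone 4 of 7 passed. Against VZ, 7 of 10 passed in CP (background 52.6%, of which 23.9% higher and 28.7% lower), 2 of them higher, HK1 and ENO2. In OSVZ against VZ, 6 of 10 passed (background 27.9%, of which 11.7% higher and 16.2% lower), with HK2, ALDOC, ENO1, LDHA and LDHB lower and ENO2 higher.

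In ISVZ against VZ 5 of the 10 passed, with HK2, ALDOC, ENO1 and LDHA lower and ENO2 higher. This share lay above the background, where 8.72% of all genes were called, 7.18% lower and 1.54% higher. By symbol alone 4 of 7 passed. Without VZ 1 and VZ 2 together, which leaves VZ 3 alone, these calls were lost. The differences were then -1.47 for HK2, -1.35 for ALDOC, -1.11 for LDHA and 3.19 for ENO2. Of CP against OSVZ, 2 of 10 passed, PGK1 and LDHA, both higher (background 31.0%, of which 13.7% higher). Between OSVZ and ISVZ 0 of 10 passed in limma (background 0.603%). These comparisons share layers and are not independent of each other.

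**Figure D2:**
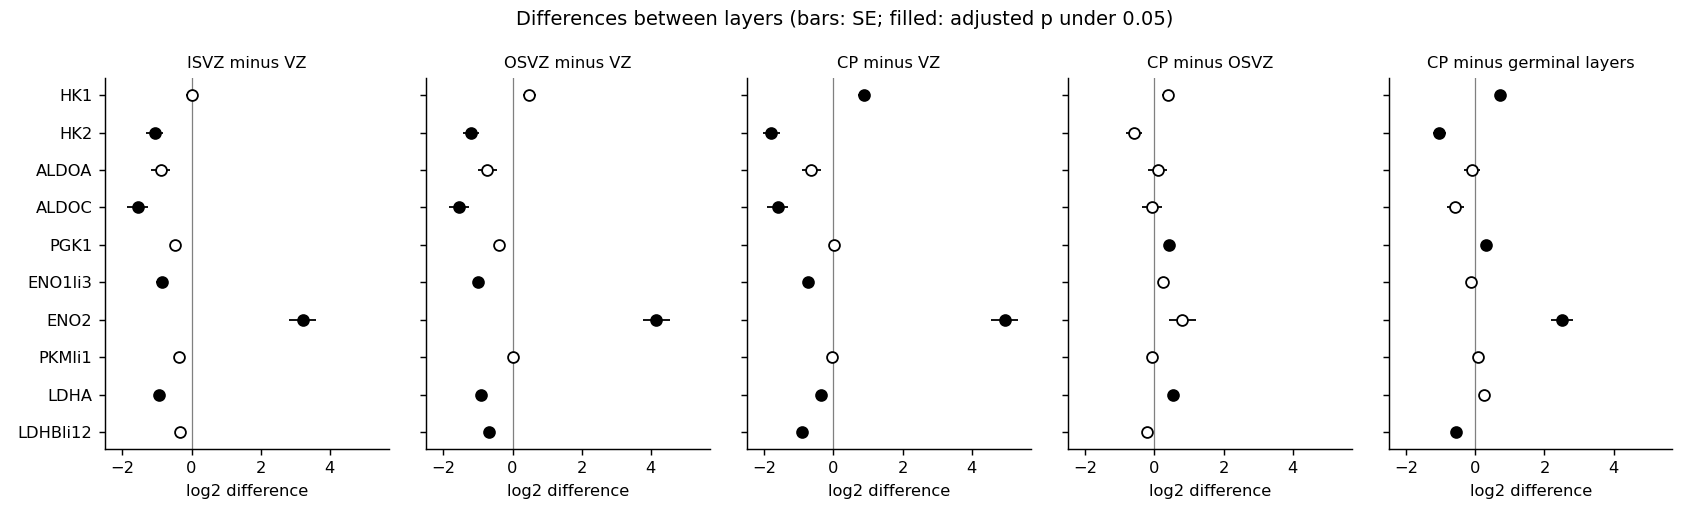
Log2 difference in FPKM + 1 (horizontal axes, bars are SE of the model) of each enzyme in 5 comparisons; filled points had an adjusted p under 0.05. LDHA was lower than in VZ by 0.95 in ISVZ and by 0.37 in CP, ENO2 was higher in all comparisons with VZ, and PKM lay near 0 except in ISVZ.

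The balance within each pair was tested as a log2 ratio within each library, which does not depend on how a library was scaled beyond the pseudocount. There were 4 pairs, with exact two-sided permutation tests and p-values adjusted over the 4. With 3 CP and 9 germinal libraries, 220 assignments were possible and the smallest p was 0.00455. HK1/HK2 was 2.56 ± 0.32 (SD, n = 3) in VZ, 3.64 ± 0.41 in ISVZ, 4.24 ± 0.36 in OSVZ and 5.23 ± 0.25 in CP. All CP libraries, at 4.95 to 5.42, lay above all germinal ones, at 2.22 to 4.54. The CP minus germinal difference was 1.75 (exact p = 0.00909, adjusted p = 0.0182), and the ratio differed over the 4 layers (adjusted exact p = 2.60e-04). On the linear scale HK1 made up 87.4% ± 3.05 of the summed FPKM of the pair in VZ and 99.1% ± 0.65 in CP. With a pseudocount of 0.1 the difference was 2.67, and without CP 2 its adjusted p was 0.0727, with 55 assignments possible.

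LDHA/LDHB was -0.39 ± 0.16 in VZ, -1.02 ± 0.02 in ISVZ, -0.61 ± 0.17 in OSVZ and 0.15 ± 0.13 in CP. It was positive in the 3 CP libraries, at 0.03 to 0.29, and negative in the 9 germinal ones, at -1.04 to -0.22. The difference was 0.82 (exact p = 0.00455, the smallest possible, adjusted p = 0.0182). LDHA thus supplied 52.6% ± 2.26 of the summed FPKM of the pair in CP, 43.3% ± 2.69 in VZ, 32.9% ± 0.26 in ISVZ and 39.6% ± 2.83 in OSVZ. The ratio was lowest in ISVZ, not in VZ, and the 4 layers differed (adjusted exact p = 2.60e-04). This pair rests on the LDHBli12 entry. With LDHB taken by symbol alone the value is LDHA itself (0.25, exact p = 0.395), and with all LDHB entries summed it was 0.83. Without CP 2 the adjusted p was 0.0727.

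ENO2/ENO1 was -5.17 ± 0.71 in ISVZ, -4.09 ± 0.98 in OSVZ and -3.55 ± 0.36 in CP. In VZ, where ENO2 was listed at or close to 0, the pseudocount set the ratio (-9.24 with a pseudocount of 1 and -12.46 with 0.1), so no test over the 4 layers is given for this pair. CP was not called against the germinal libraries (2.61, exact p = 0.10, adjusted p = 0.133), and this value includes the VZ libraries. OSVZ 3, at -3.07, lay above every CP library. ENO2 supplied 2.65% ± 1.43 of the summed FPKM of the pair in ISVZ, 6.02% ± 3.98 in OSVZ and 7.78% ± 1.91 in CP, so ENO1 remained the main enolase transcript in every library. In VZ the ENO2 share was at most 0.00399%.

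ALDOA/ALDOC was 1.90 ± 0.45 in VZ, 2.57 ± 0.23 in ISVZ, 2.72 ± 0.22 in OSVZ and 2.88 ± 0.36 in CP. Those of VZ, at 1.48 to 2.37, overlapped ISVZ, whose lowest library was 2.35. The ratio differed among the layers (exact p = 0.0234, adjusted p = 0.0234) but not between CP and the germinal layers (0.48, exact p = 0.136). Without VZ 2, the library with the highest TTR, the test over the layers gave an adjusted p of 0.102, and without CP 3 it gave 0.0506.

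**Figure D3:**
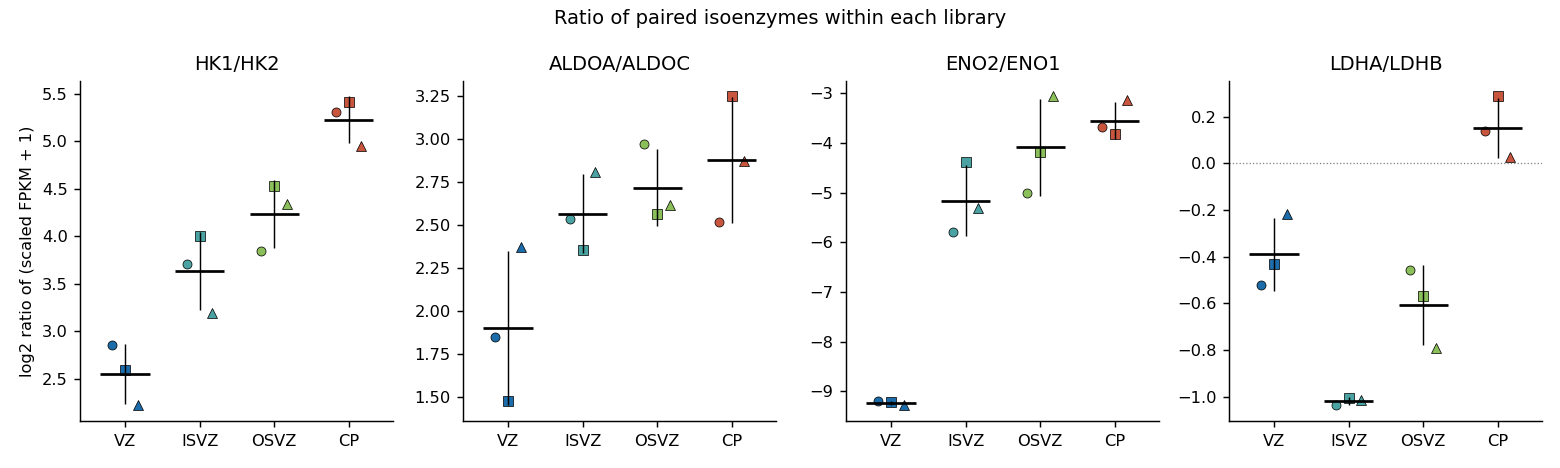
Log2 ratio of scaled FPKM + 1 (vertical axes, which do not start at 0) of the 4 isoenzyme pairs within each library, with symbols as in the plot of levels. HK1/HK2 climbed from a mean of 2.56 in VZ to 5.23 in CP, and LDHA/LDHB was above 0 in the 3 CP libraries alone; ENO2/ENO1 in VZ is set by the pseudocount.

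The enzymes varied along a few shared patterns over the 12 libraries. Pearson's r, given here as a description over libraries that share their layer structure, was 0.901 between ENO1 and LDHA, 0.833 between PGK1 and LDHA and 0.832 between ALDOA and ALDOC. HK2 and LDHB had an r of 0.858, and ENO2 had an r of -0.906 with HK2 and -0.877 with LDHB. LDHA and LDHB had an r of 0.383. Likeness was ranked among tested genes with an ordinary symbol. Copy entries, antisense genes, loci named LINC and genes without such a symbol were left out. Of those ranked, ADGRA3 was most like HK2 (r = 0.976), PYGB most like ALDOA (0.959), FAM167A most like ALDOC (0.978) and RUVBL1 most like PGK1 (0.964). HSPA5, a chaperone of the endoplasmic reticulum, was most like both ENO1 (0.952) and LDHA (0.954). GDAP1L1 was most like ENO2 (0.975), PTPRF most like PKM (0.924) and AHCY most like LDHB (0.967). PYGB, the brain glycogen phosphorylase, is the only one of these that belongs to a list of glucose metabolism used here. Genes read from copy entries, among them ENO1, PKM and LDHB, could not appear in this ranking, so their absence from it says nothing. CLU, also among the 3 most like ALDOC (r = 0.974), measured 123, 264 and 178 in VZ and at most 47.4 elsewhere.

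The steps between the members were read where an entry could be placed. GPI, which isomerises glucose phosphate, rose from 133 ± 15.1 in VZ to 185 ± 22.6 in CP, and in CP against the germinal mean (0.46 ± 0.10, adjusted p = 0.00229, limma). Of the phosphofructokinases, PFKP rose by 0.96 ± 0.24 (adjusted p = 0.00623), from a low level of 0.67 in VZ to 2.60 in CP. Its value in OSVZ 3, 3.22, lay above every CP library. PFKL and PFKM, at 12.5 and 16.2 in CP, were not called against the germinal mean. PFKM was called higher in OSVZ than in VZ, with means of 17.3 and 13.9. The plain TPI1, PGAM1 and BPGM entries were below the filter, and the copies TPI1li1, PGAM1li1 and BPGMli1 shared 9 of 9, 8 of 10 and 2 of 3 RefSeq neighbours of these symbols. These copies were looked up after the zeros had been seen.

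TPI1li1, triose phosphate isomerase, followed the course of LDHA and ENO1, at 50.5, 65.4 and 61.8 in VZ, 30.1 to 36.0 in ISVZ, 30.9 to 39.4 in OSVZ and 39.6 to 56.7 in CP. It fell by 0.84 ± 0.15 in ISVZ (adjusted p = 0.00673, limma) and by 0.74 ± 0.15 in OSVZ (adjusted p = 0.00406) relative to VZ. The TPI1li1 entry overlaps CDCA3, listed at means of 76.8 in VZ, 35.1 in OSVZ and 0.94 in CP. Reads of the shared stretch could have been divided between them. PGAM1li1, phosphoglycerate mutase, measured 108 ± 12.9 in VZ, 67.1 ± 6.69 in ISVZ, 80.4 ± 20.8 in OSVZ and 101 ± 9.24 in CP, and fell by 0.68 ± 0.17 in ISVZ (adjusted p = 0.0298). That call was lost without ISVZ 1 (adjusted p = 0.0765), ISVZ 2 (0.122), VZ 2 (0.106) or VZ 3 (0.116). BPGMli1, bisphosphoglycerate mutase, rose by 0.38 ± 0.10 in CP against the germinal mean (adjusted p = 0.00604), to 5.32 ± 0.53. For GAPDH, the enzyme before PGK1, the plain entry was listed at 0 in all libraries and no GAPDH entry shared a RefSeq neighbour with the symbol, so GAPDH was not analysed here. In RefSeq GAPDH lies between IFFO1 and NCAPD2. The NCAPD2 entry, named for a condensin subunit of mitotic chromosomes, measured 108 ± 12.5 in CP, where 5 other condensin genes (NCAPH, NCAPG, NCAPD3, SMC2 and SMC4, picked after seeing this) had means of 0.05 to 2.91. Among the genes ranked for likeness, NCAPD2 had the second highest to ALDOA (r = 0.957). Whether GAPDH reads were counted under that entry was not tested.

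Around the members, 101 other genes of glucose metabolism were taken as lists, of which 75 were tested. In CP against the germinal mean 19 were higher, 27 lower and 29 not called (background 24.0% higher and 28.7% lower), with a median log2 difference of 0.05 beside -0.05 over all genes. In ISVZ against VZ 17 were lower and 1 was higher (background 7.18% and 1.54%), and in OSVZ against VZ 22 were lower and 7 higher (background 16.2% and 11.7%).

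Of the glucose transporters, SLC2A1 fell in CP and SLC2A3 rose. SLC2A1, the general transporter that is abundant in vessels, measured 13.4 ± 2.42 in VZ, 9.29 ± 1.02 in ISVZ, 10.1 ± 1.39 in OSVZ and 5.84 ± 0.51 in CP, and fell by 0.78 ± 0.12 in CP (adjusted p = 2.17e-04, limma). SLC2A3, the neuronal transporter, rose by 1.04 ± 0.30 (adjusted p = 0.0121) to 8.09 ± 2.55, a call lost without CP 3 (adjusted p = 0.0717). Its value in OSVZ 3, 10.7, lay above CP 1 and CP 2, at 5.98 and 7.36. The endothelial and mural markers summed to 17.4 to 31.0 in CP against 35.6 to 48.5 in the germinal layers, and their part in the SLC2A1 difference was not tested. Of the 7 transport genes tested, SLC2A8, SLC2A12 and BSG, the partner protein of lactate transporters, also fell in CP and the lactate transporter SLC16A7 rose, where 52.7% of all genes were called. SLC16A1, the lactate transporter at 14.0 to 19.1 across layer means, was called lower in CP and in OSVZ than in VZ. In CP against the germinal mean it was not called. It was lower there with FPKM as deposited (adjusted p = 0.0361, limma), equal totals (0.0298), quantile normalisation (0.0359) or without ISVZ 1 (0.0411).

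Of the 5 regulators of phosphofructokinase, PFKFB2, TIGAR and PFKFB3 rose in CP by 0.86 ± 0.11, 0.84 ± 0.11 and 0.53 ± 0.18, and 0 fell (background 24.0% higher and 28.7% lower). PFKFB2 and PFKFB3 make fructose 2,6-bisphosphate, the activator of phosphofructokinase, and TIGAR removes it. The PFKFB3 call was lost without CP 1 (adjusted p = 0.0892) or CP 2 (0.165). Against VZ, PFKFB1 was called lower in CP and PFKFB4 higher. Against the germinal mean PFKFB1 was called lower with FPKM as deposited (adjusted p = 0.0490, limma), without OSVZ 3 (0.0459) or without VZ 2 (0.0451). PFKFB4 was called higher there with quantile normalisation (0.0275) or without ISVZ 1 (0.0486). Of 13 genes around pyruvate dehydrogenase, 5 rose and 4 fell in CP, against 52.7% of all genes called. PDK4, a kinase that shuts the complex down, fell by 1.83 ± 0.24 (adjusted p = 6.68e-05, limma), from 13.3 ± 5.79 in VZ to 0.46 ± 0.10 in CP. PC, pyruvate carboxylase, fell by 0.57 ± 0.12, while DLAT, a core subunit, and PDP1, the phosphatase that switches the complex on, rose by 0.57 ± 0.12 and 0.46 ± 0.11.

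The branch from phosphoglycerate to serine held the largest drops. PHGDH, its first enzyme, measured 47.7 ± 5.50 in VZ, 27.1 ± 7.95 in ISVZ, 20.4 ± 1.40 in OSVZ and 2.43 ± 1.04 in CP, a fall of 3.20 ± 0.18 in CP (adjusted p = 1.97e-07, limma). PSAT1, the next enzyme, fell by 2.73 ± 0.17 (adjusted p = 3.86e-07) from 183 ± 34.3 in VZ to 11.96 ± 1.92 in CP, and PSPH, the last, by 0.63 ± 0.11. Where 52.7% of all genes were called, 3 of 8 genes of the pentose phosphate pathway were, with PGD and PGLS higher by 0.72 ± 0.17 and 0.54 ± 0.17 and H6PD lower by 0.51. PGLS was not called without CP 2 (adjusted p = 0.0626) or CP 3 (0.116), or with FPKM as deposited (0.0570). Of 10 genes of gluconeogenesis and glycogen 1 rose and 4 fell, among the latter the glycogen phosphorylase PYGM, by 0.89 ± 0.17, and the glycogen synthase GYS1, by 0.48 ± 0.12.

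Among 12 genes of the hypoxia response, 8 fell in CP and 1 rose, beside 28.7% lower and 24.0% higher among all genes. HIF1A, the oxygen-regulated factor that activates many glycolytic genes, had layer means of 26.8 to 34.8 and was not called (0.23 ± 0.11, adjusted p = 0.0996, limma), though it was without CP 2 (0.35, adjusted p = 0.0276). Its target P4HA1 fell by 0.83 ± 0.11, KDM3A by 1.32 ± 0.11 and EGLN3 by 0.78 ± 0.17. NDRG1 rose by 3.07 ± 0.32 (adjusted p = 1.53e-05), from 0.25, 0.55 and 3.58 in the VZ libraries to 28.4, 30.7 and 33.5 in CP. Of the regulators of the pathway, PTBP1, a splicing factor that favours the M2 form of PKM, fell by 1.81 ± 0.15 in CP (adjusted p = 2.58e-06), from 32.8 ± 4.82 in VZ to 6.88 ± 0.99. Its relative PTBP2 was not called, at 52.3 to 67.3 across layer means. MYCN, a transcription factor of the MYC family, rose by 1.01 ± 0.15.

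**Figure D4:**
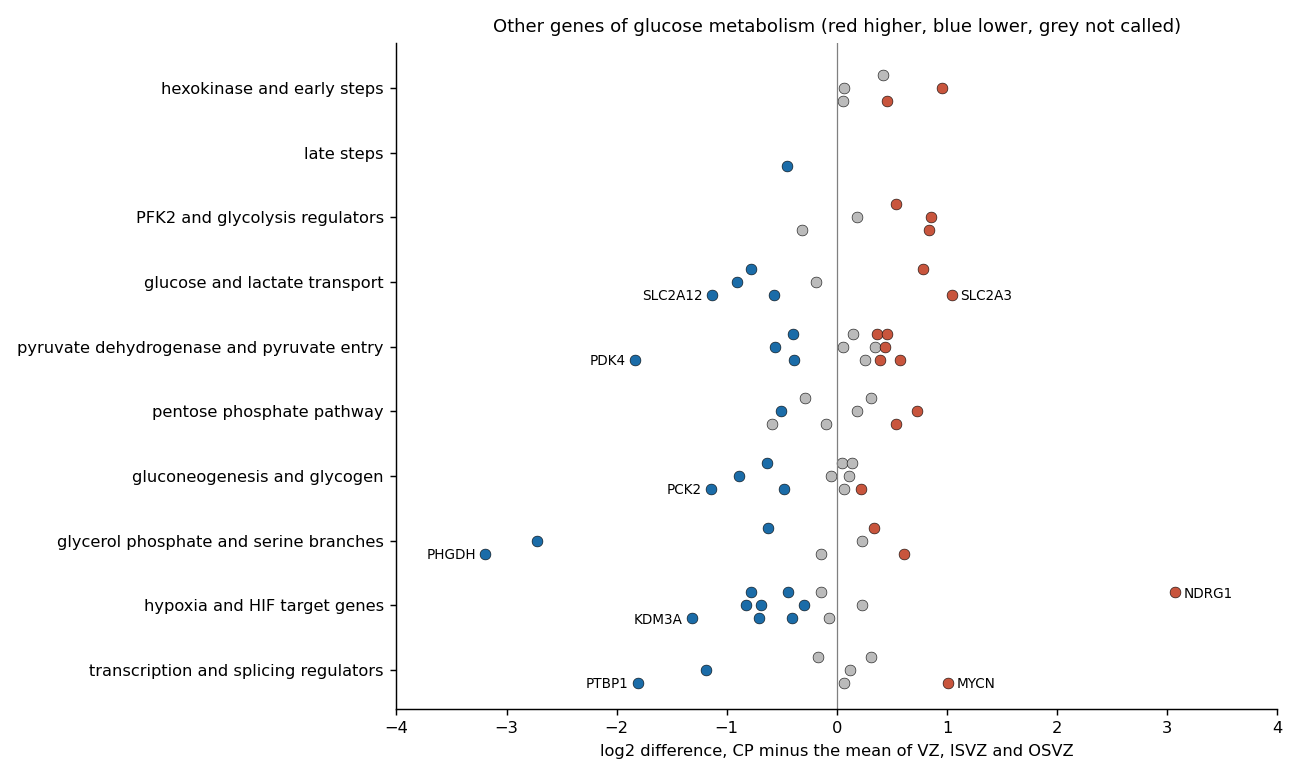
Log2 difference in CP against the mean of the germinal layers (horizontal axis) for the tested genes of 10 lists around glycolysis, each point a gene, red where higher, blue where lower and grey where not called. PHGDH at -3.20 and NDRG1 at 3.07 lie at the ends, and 19 of 75 genes are red and 27 blue.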

How the data were processed

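Poly(A) RNA was sequenced from 12 laser-captured samples. Per the file headers, the authors deposited FPKM per gene with its bounds, in 1 table for each library. The submitters' processing notes name HISAT2 and Cufflinks; versions, genome build, annotation and strandedness: not given in the sources used here. Positions are those of the tables. Of 81418 IDs, 360 with several entries were summed and 4 with a failed status left out. Libraries were scaled by the median ratio over the 10200 genes that reached 1 FPKM in each of them. Summed FPKM was 244666 to 276629, no 2 libraries were identical (0 pairs), and counts were not used. The 14101 genes that reached 1 in 3 libraries entered a limma model (version 3.58.1, R 4.3.3) of log2(scaled FPKM + 1) over the 4 layers with 8 residual degrees of freedom, with Benjamini-Hochberg adjustment over all genes and two-sided tests. The script was tested on simulated data. Pair ratios were tested by exact permutation (220 assignments for CP, 369600 over layers). Overlapping genes, copies and antisense genes are uncertain. HK1 overlaps SUPV3L1, ALDOA PPP4C, ALDOC PIGS, PGK1 TAF9B, ENO1li3 RERE and LDHA TSG101. TPI1li1 overlaps SPSB2 and CDCA3, and PGAM1li1 overlaps EXOSC1.

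The members, the gene lists and the tests were chosen with earlier results of these data known. The rule for other named genes took, per list, up to 4 called genes with the largest difference in CP against the germinal mean. It also took 2 others per list with the highest level, plus GAPDH, SLC2A1 and HIF1A. For each enzyme it took the 3 genes most like it among tested genes with an ordinary symbol, copy entries left out. Some genes this rule named are not reported here. BSG, CLU, the copy entries and the condensin genes were named after their values were seen. Alternatives were another pseudocount, filters, scalings, a replicate block, leaving out libraries, and summed copies; placing entries by RefSeq neighbours was added after seeing the data. The closing section gives their effect. Marker lists for radial glia, intermediate progenitors, neurons, astrocytes, vessels, erythroid cells, microglia, choroid plexus, cell cycle and meninges were summed. Intermediate progenitor markers summed to 176 to 366 in the germinal layers and at most 12.2 in CP, and cell cycle to 90.8 to 266 and at most 11.5. Microglia summed to 7.75 to 25.7 and at most 2.18, and erythroid to 1.01 to 2.91 and at most 1.33. Meningeal markers were higher in CP, at 14.3 to 19.6 against 1.00 to 12.2 in the germinal layers. Of their 2 tested genes, LUM was called higher in CP than in the germinal mean and COL3A1 was not. The part of meningeal RNA in genes higher in CP was not tested.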

Additional observations from a re-analysis of the deposited data

How the results depend on the processing

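No value that was called changed direction under the alternatives run. Without VZ 1 and VZ 2 together, which leaves a lone VZ library assumed to vary like the other layers, 4924 genes passed in CP minus VZ, 1171 in OSVZ minus VZ, 71 in ISVZ minus VZ and 21 in OSVZ minus ISVZ; 0 of 7 members by symbol passed in ISVZ minus VZ, with 6 at an unadjusted p under 0.05; HK1/HK2 in CP was 1.53 (adjusted exact p = 0.0667 over the pairs by symbol alone, and 0.0333 over the pairs with placed entries that the report uses) and the ALDOA/ALDOC F over layers was 1.08 (adjusted exact p = 0.403). ISVZ minus VZ called 787 genes with no filter and 715 with a filter at 5. OSVZ minus ISVZ called 85 genes in the fit reported, 19 with a pseudocount of 0.1, 8 with no filter, 299 with a filter at 5, 54 with FPKM as deposited, 38 with equal totals and 156 with quantile normalisation. In CP minus OSVZ, 1 member passed with no filter, FPKM as deposited, equal totals, quantile normalisation, or without VZ 1 and VZ 2. LDHA/LDHB in CP was 0.83 with copies summed and 0.82 with the entry placed by RefSeq neighbours. Causes of these moves were not tested, except that leaving out libraries removes samples by construction.

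Same-numbered libraries deviated together with r of 0.0629 to 0.425, over 0.1 in 16 of 18 pairs. Pairing was taken only where every pair exceeded 0.1, so the block was not used in the report; that 17 of 18 correlated best with their own number is a hint from the data, not from the design. With the replicate block OSVZ minus ISVZ called 206 genes; by symbol 5 members passed in CP minus the germinal layers and 6 in ISVZ minus VZ. Among the 10 enzymes it added calls for ALDOA in CP, ISVZ and OSVZ against VZ (adjusted p = 0.0163, 0.0172 and 0.0164) and over the layers (0.0114), PGK1 in ISVZ and OSVZ against VZ (0.0396 and 0.0341), HK2 in CP minus OSVZ (0.0415) and ALDOC in CP against the germinal mean (0.0471).

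Leaving out 1 library at a time gave 2558 to 3983 genes in OSVZ minus VZ, 389 to 1384 in ISVZ minus VZ and 2 to 552 in OSVZ minus ISVZ, and 1 to 3 members by symbol in CP minus OSVZ. In CP it gave 1.59 to 1.89 for HK1/HK2 and, for ENO2/ENO1, 2.19 to 2.84 by symbol alone, where ENO1 is at 0, and 2.22 to 3.001 with ENO1li3, and an F over layers of 2.89 to 8.54 for ALDOA/ALDOC.
Read depth was not known, so low values such as HK2 in CP are limited by an unknown sampling error.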
